A study of Mus musculus with 4 samples.

Results

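The genes described here encode the small heat shock proteins Cryab, Hspb1, Hspb2, Hspb6 and Hspb8, the HSP70 chaperones Hspa1a, Hspa1b and Hspa8, the J-domain co-chaperone Dnajb1, and the transcription factor Hsf1. They are 10 of the 41457 genes in the deposited count table and were taken from it by name. Cryab was chosen by its deposited counts, which were higher in every mutant line than in control, so its difference from control is a description here and carries no test. The other members are relatives of Cryab or genes of the heat shock response. The cells were mouse colorectal tumour lines grown in RPMI medium, with colon as the labelled tissue. The control carried the genotype label control, and the lines M8, M32 and M83 shared the genotype label ENU mutant, ENU being an alkylating mutagen. The series speaks of triplicates, but each of these 4 samples has 1 column of poly(A) RNA counts, called a library below, and whether a column sums repeats is not given in the sources used here. The labels do not name the parental cell line, the mutated genes or the culture the mutants came from, and they do not say whether a line is a clone.

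Small heat shock proteins are chaperones that work without ATP. They hold partly unfolded proteins in a soluble state until ATP-driven chaperones such as HSP70, assisted by J-domain proteins, refold them or pass them on for degradation. Under proteotoxic stress Hsf1 forms trimers that bind heat shock elements, arrays of the triplet GAA in alternating orientation, and switch on the inducible HSP70 genes. Cryab, or alpha B-crystallin, and its relatives Hspb2 and Hspb6 are best known from muscle, and Cryab also from the lens.

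The upstream sequence of the inducible HSP70 pair is shown because it is nearly alike in both genes. That of Hspb1 is shown because it holds the short heat shock word 2 times. Bases before the start are not part of the transcript and do not bear on how counts are split between the pair. The sequences are the 250 bases before the RefSeq start on GRCm38.p6, 5′ to 3′, and capitals mark each match to GAANNTTC. Hspa1a lies at chr17:34972157-34972406 on the minus strand, Hspa1b at chr17:34959239-34959488 on the minus strand and Hspb1 at chr5:135887669-135887918 on the plus strand.
Hspa1a: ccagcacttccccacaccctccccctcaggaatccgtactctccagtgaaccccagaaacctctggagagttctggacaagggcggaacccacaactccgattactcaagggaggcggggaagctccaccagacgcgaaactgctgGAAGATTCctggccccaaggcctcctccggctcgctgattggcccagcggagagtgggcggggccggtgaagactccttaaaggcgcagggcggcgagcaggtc
Hspa1b: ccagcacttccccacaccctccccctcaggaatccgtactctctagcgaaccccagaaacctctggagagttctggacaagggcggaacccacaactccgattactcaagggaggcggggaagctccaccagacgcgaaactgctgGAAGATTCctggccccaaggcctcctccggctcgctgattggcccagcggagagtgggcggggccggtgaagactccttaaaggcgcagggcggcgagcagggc
Hspb1: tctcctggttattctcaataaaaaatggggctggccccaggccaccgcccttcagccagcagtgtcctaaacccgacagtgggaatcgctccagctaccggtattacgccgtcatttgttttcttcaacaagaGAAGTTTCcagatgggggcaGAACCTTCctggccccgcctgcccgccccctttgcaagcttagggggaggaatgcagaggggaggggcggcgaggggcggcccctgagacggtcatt
The Hspa1a and Hspa1b stretches were identical at 247 of 250 bases. Counted backwards from the start, with the Hspa1a base first, the 3 differences were C207T, T204C and T2G. The shared word GAAGATTC began 104 bases before the start in both genes. In Hspb1 the words GAAGTTTC and GAACCTTC began 117 and 97 bases before the start.

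Windows of 300 bases, 250 before and 50 after the start, were searched on both strands for GAANNTTC and TTCNNGAA, which read alike on either strand. The RefSeq table matched 6 of the 10 members by symbol, and Cryab, Hspb2, Hspa8 and Hsf1 were not among these. Hspb8 held GAAGTTTC from 2 bases after the start, and the downstream of the 2 listed starts of Hspb6 held GAAGTTTC from 120 bases before it. The listed windows of Dnajb1 held neither word. Of 32851 windows of this length, 7.86% held GAANNTTC and 8.52% TTCNNGAA, and 0.603% held a longer array of 3 alternating triplets, which contains both. No listed window of a member held TTCNNGAA or the longer array. A match is a description of letters and not a bound site.

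Total counts ranged from 25818148 in control to 28879954 in M8, and values below are TMM-scaled CPM, a gene's counts relative to its library's total. Intervals are exact 95% Clopper-Pearson intervals of the ratio of counts, and they cover counting error only. The colon label was set against its markers: Epcam, Cdx2 and Muc2 had 0 counts in every library, and 4 of the 12 epithelial and colon markers reached the filter on low counts. That list summed to 104 CPM in control against 180 (M8), 73.8 (M32) and 160 (M83), nearly all of it from the keratin genes Krt18 and Krt20. Vim, a mesenchymal intermediate filament gene, stood between 4362 CPM (M8) and 5072 CPM (M83). Of 8 leukocyte markers, 4 were at 0 in every library.

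Cryab was several-fold higher in each of the mutant lines than in control. The control read 11.2 CPM (285 counts), M8 read 51.8 CPM (1475 counts), M32 read 48.4 CPM (1313 counts) and M83 read 65.6 CPM (1898 counts). The control lay far below the lines, whose mean was 55.3 CPM ± 9.13 (SD, n = 3), and the groups did not overlap. Among all tested genes 23.3% had every line above control, and nothing is read from this for Cryab, which was chosen on it. The ratio to control was 4.64 for M8 (interval 4.08 to 5.28), 4.33 for M32 (3.81 to 4.94) and 5.88 for M83 (5.19 to 6.68). The fitted log2 difference was 2.31 (SE 0.306), given as a description because it is the value Cryab was chosen for. A comparison between lines does not use the control. M83 was 1.27 times M8 (1.18 to 1.36) and 1.36 times M32 (1.26 to 1.46), while M8 was 1.07 times M32 (0.993 to 1.15), within counting error.

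**Figure D1:**
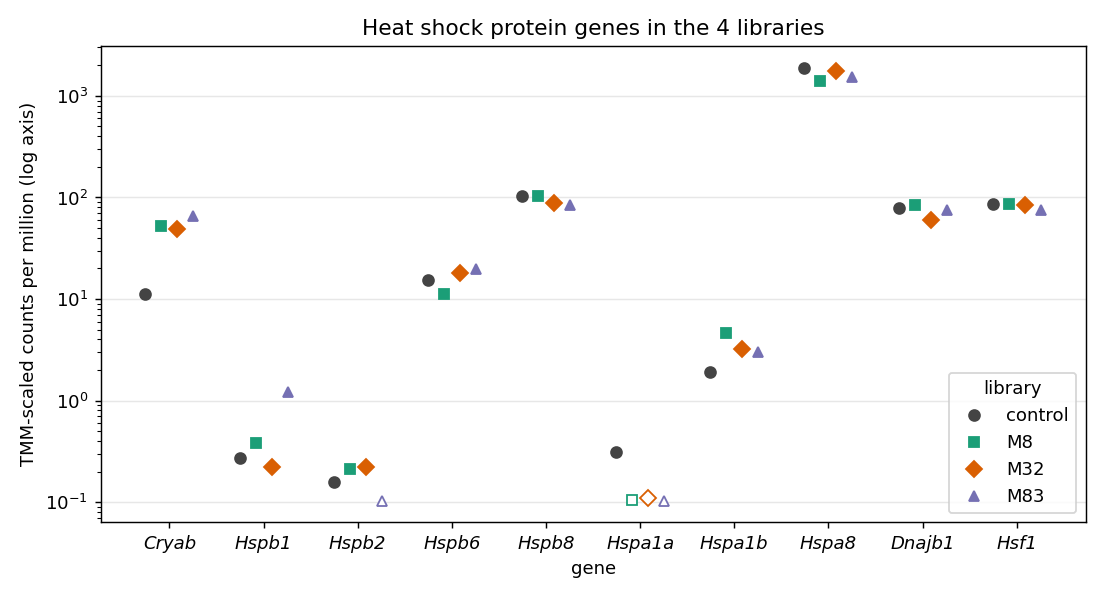
TMM-scaled CPM on a log axis for the 10 genes in control (circles), M8 (squares), M32 (diamonds) and M83 (triangles), 1 library each; open symbols are counts of 0 drawn at the value of 3 counts. Cryab is at 11.2 in control and between 48.4 and 65.6 in the lines, while Hspb8, Hspa8, Dnajb1 and Hsf1 stay close to control.

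Cryab is a protein-coding gene on the plus strand of chromosome 9, from 50751325 to 50756636 (ENSMUSG00000032060, GRCm38). Hspb2 overlaps its start on the minus strand, from 50751078 to 50752354 (ENSMUSG00000038086), and 252 exonic bases of Hspb2, 30.2% of its exons, also lie in Cryab exons. The strand setting of the counting is not given in the sources used here, so reads of this overlap cannot be assigned to either gene with certainty. Hspb2, the muscle-enriched relative, gave 4 counts in control, 6 each in M8 and M32, and 0 in M83. All 4 libraries were at or near the limit of 3 counts that a count of 0 allows, which is 0.118 CPM in control and 0.104 CPM in M83, so no difference was detectable at this depth. Hspb2 did not reach the filter on low counts and was not tested.

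Hspb1, the widely expressed small heat shock protein that binds actin and is a classic heat-induced gene, was close to absent. Its counts were 7 (control), 11 (M8), 6 (M32) and 35, the last in M83. Control, M8 and M32 lay together and M83 above them, at 1.21 CPM against 0.274 CPM in control, a ratio of 4.41 (1.93 to 11.8). M83 was also 3.13 times M8 (1.56 to 6.84) and 5.47 times M32 (2.28 to 15.9). Over the 3 lines the log2 difference was 1.13 (SE 1.28, edgeR quasi-likelihood adjusted p = 1), and it was 0.13 without M83 and 1.501 without M32. Its level is uncertain, since 48.8% of the 50-base stretches of its transcripts also occur in the annotated pseudogene Hsp25-ps1, and how reads with several matches were counted is not given in the sources used here.

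Hspb6, a small heat shock protein of smooth and striated muscle, differed between lines in direction. It stood at 15.3 CPM in control against 11.2 (M8), 17.99 (M32) and 19.9 (M83), with the control inside the range of the lines (mean 16.4 CPM ± 4.59, SD, n = 3). M8 was below control (ratio 0.731, 0.628 to 0.85) and M83 above it (1.3, 1.14 to 1.48), and M83 was 1.78 times M8 (1.55 to 2.05). The log2 difference over the lines was 0.10 (SE 0.38, edgeR adjusted p = 1), and it turned to -0.0030 without M32 and -0.0793 without M83. Hspb8, which pairs with the co-chaperone Bag3 to direct damaged proteins to autophagy, was the most abundant small heat shock protein transcript per kb of exon in control. It stood at 102.9 CPM in control against 103.0 (M8), 88.4 (M32) and 84.3 (M83). M8 was level with control (ratio 1.001, 0.949 to 1.06) and M83 was the lowest (0.819, 0.775 to 0.866). The log2 difference was -0.16 (SE 0.227, edgeR adjusted p = 1).

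Per kb of annotated exon, Cryab made up more of the small heat shock protein family in every line than in control. The 11 small heat shock protein genes summed to 72.4 CPM per kb in control against 96.6 (M8), 91.1 (M32) and 102 (M83). Cryab made up 10.4% of that sum in control against 36.3% (M8), 35.9% (M32) and 43.7% (M83), while Hspb8 made up 72.9% in control and 54.7%, 49.7% and 42.5% in the lines. On this scale Cryab stood at 0.143 of the Hspb8 level in control against 0.663 (M8), 0.723 (M32) and 1.03 (M83). In the order of the 10 members it had rank 5 in control, between Hsf1 (12.2 CPM per kb) and Hspb6 (6.65), rank 3 in M8 and M32, and rank 2 in M83, where Hspb8 at 43.2 lay next to Cryab at 44.4. Hspa8 headed the order in every library. These shares follow from the higher Cryab counts and are a description. Cryaa, the lens alpha-crystallin, had 0 counts in every library, and the muscle gene Hspb7 had at most 8 counts.

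**Figure D2:**
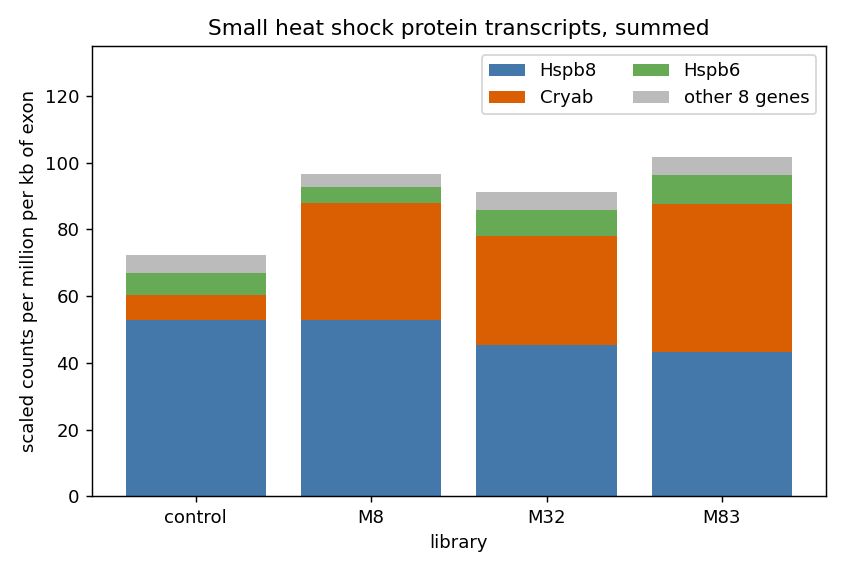
Stacked bars of CPM per kb of exon for the 11 small heat shock protein genes in each library, starting at 0. Cryab grows from 10.4% of the sum in control to between 35.9% and 43.7% in the lines, beside a Hspb8 segment that is level or smaller.

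Hspa1a and Hspa1b encode the stress-inducible HSP70, the standard readout of Hsf1 activity. The genes lie 9951 bases apart on chromosome 17, Hspa1b from 34956436 to 34959238 and Hspa1a from 34969190 to 34972156. They share 62.3% of the 50-base stretches of Hspa1b, so the split of counts between them is uncertain. Control gave 49 Hspa1b counts and the lines 133 (M8), 88 (M32) and 87 (M83), or 1.92 CPM in control and 4.67, 3.24 and 3.01 CPM in the lines. Every line lay above control, by 2.43 times for M8 (1.74 to 3.45), 1.69 times for M32 (1.18 to 2.45) and 1.57 times in M83 (1.09 to 2.27). The log2 difference was 0.92 (SE 0.53), and it did not pass (edgeR adjusted p = 1).

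Hspa1a went the other way at very low counts, with 8 in control and 0 in each line. Set against a value of 3 counts in each line, the control level was 2.98-fold that of M8, 2.83-fold that of M32 and 3.02-fold that of M83. These figures leave out the counting error of the 8 control counts, so they are not lower bounds. It did not reach the filter on low counts and was not tested. Summed, the pair gave 57 counts in control against 133, 88 and 87 in the lines, of which Hspa1a gave 14.04% in control. The summed ratio was 2.09 for M8 (1.52 to 2.9), 1.45 for M32 (1.03 to 2.06) and 1.35 for M83 (0.953 to 1.92), and its log2 difference was 0.70 (SE 0.518, edgeR adjusted p = 1). The summed level stayed between 2.23 CPM (control) and 4.67 CPM (M8).

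Hspa8, the constitutive HSP70 that does most folding work in unstressed cells, stood at 1899.6 CPM in control against 1389.9 (M8), 1744 (M32) and 1521 (M83). The control was above every line, and the ratio was 0.732 for M8 (0.722 to 0.741), 0.918 for M32 (0.907 to 0.93) and 0.801 for M83 (0.791 to 0.811). The log2 difference was -0.29 (SE 0.212) and did not pass (edgeR adjusted p = 1). For Hspa8, 39.4% of these stretches occur in other annotated genes, mainly the pseudogene Gm15459. Dnajb1, the J-domain protein that delivers clients to HSP70, stood at 77.9 CPM in control against 84.0 (M8), 60.7 (M32) and 74.5 (M83), with the control inside the range of the lines. Its ratio was 1.08 in M8 (1.02 to 1.14), 0.779 in M32 (0.73 to 0.832) and 0.957 for M83 (0.9 to 1.02), and the log2 difference -0.09 (SE 0.256, edgeR adjusted p = 1).

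Hsf1 itself was nearly level. It stood at 86.8 CPM in control against 87.2 (M8), 83.7 (M32) and 74.9 (M83), and the lines averaged 81.9 CPM ± 6.33 (SD, n = 3). Control and M8 were level and M83 was the lowest, with a ratio of 0.863 (0.813 to 0.916). The log2 difference was -0.08 (SE 0.218, edgeR adjusted p = 1). Hsf1 is activated on the protein, so its transcript level is no measure of its activity.

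**Figure D3:**
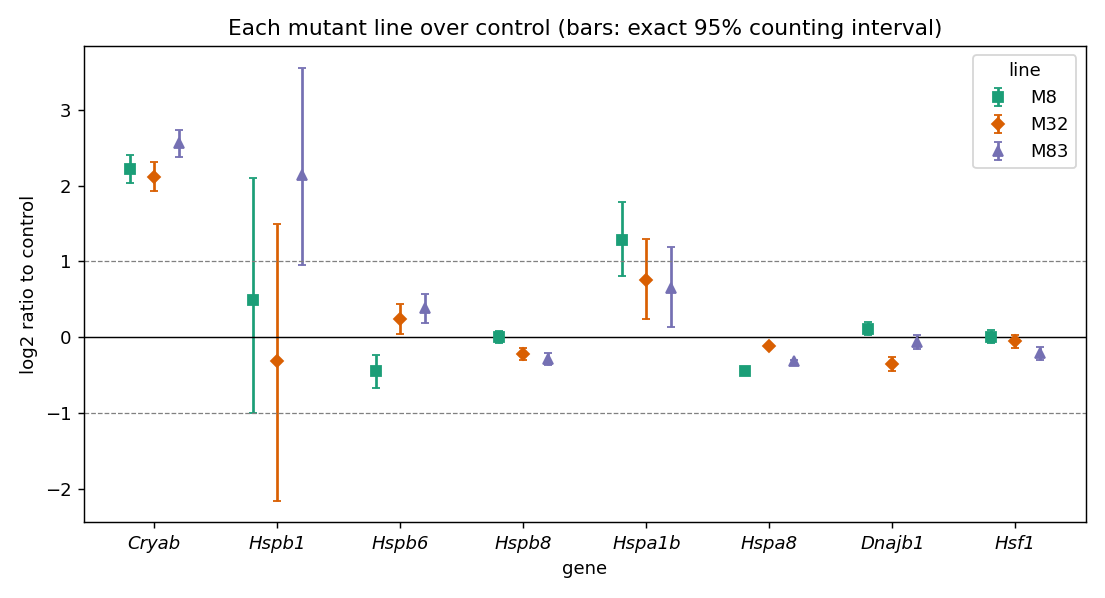
Log2 ratio of each line to control, without a prior count, for the 8 tested genes, with exact 95% counting intervals as bars, a line at 0 and dashed lines at 2-fold. Cryab lies above 2-fold in M8, M32 and M83, Hspa1b in M8 and Hspb1 in M83 (35 counts), while Hspb8, Hspa8, Dnajb1 and Hsf1 lie within 2-fold.

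Across the table, edgeR's quasi-likelihood test of the 3 lines against the lone control called 0.00737% of 13576 genes (1 gene, at an adjusted p under 0.05). Of the 7 tested members other than Cryab, 0 passed, 0 had an unadjusted p under 0.05, where 3.3% of all tested genes did, and 0 were called by DESeq2, which called 0.189% of the 19529 genes it gave an adjusted p. The fit assumes that the control, a lone library, varies as the lines do, and the p-values measure the spread between these lines, which are different mutants. A miss with 2 residual degrees of freedom does not show that a member was unchanged. Of these 7 members, 1 lay above control in all 3 lines (Hspa1b), where 23.3% of all tested genes did, and 1 lay below (Hspa8), where 21.3% did, so neither count stands out from the table. Hspa1a, not tested, also lay below.

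Single lines were set against control by a rule of size with no test: at least 2-fold, at least 50 counts in the higher library, and an interval leaving out 1. Cryab was past 2-fold higher in each line, as its choice implies. Of the other 7 tested members, 1 was past 2-fold higher in M8, Hspa1b, where 2.97% of all tested genes were (4.6% in either direction). The count was 0 of 7 in M32, against 3.88% of all tested genes (4.8% in either direction), and 0 of 7 in M83, against 4.17% (5.19% in either direction). None of these 7 was past 2-fold lower, against 1.64% in M8, 0.921% in M32 and 1.02% in M83. Hspb1 in M83 was above 2-fold but had fewer than 50 counts.

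In the wider heat shock programme, values lay closer to control. Of 26 listed HSF1 targets 25 were tested, 2 of them lay above control in all lines, the selected Cryab and Hspa1b, and 3 below, among them Hsp90aa1 and Hspa8. Over all tested genes 23.3% lay above and 21.3% below, larger shares than in this list. The median log2 difference was -0.03 (0.01 without M83, -0.13 without M8), beside 0.02 over all tested genes, and 0 of the 24 other than Cryab passed in edgeR or DESeq2 or had an unadjusted p under 0.05. Hsph1, the HSP110 exchange factor, went from 13368 counts in control to 18952 in M8, 10882 in M32 and 10505 in M83. Bag3, a strongly heat-induced co-chaperone, gave 1812 counts in control against 1559 (M8), 1699 (M32) and 2151 (M83). Hsp90aa1, the inducible cytosolic HSP90, was lower in every line, with log2 ratios of -0.51, -0.31 and -0.22. The log2 difference was -0.03 (SE 0.226) for the J-domain gene Dnaja1, 0.08 (SE 0.273) for Dnajb4, and -0.03 (SE 0.26) for the HSP90 co-chaperone gene Chordc1.

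HSF1 targets lay on either side of control depending on the line. In M8, 19 of the 25 were above control, against 52.4% of all tested genes, with a median log2 ratio of 0.20. In M32 6 of the 25 were above control (49.6% of all genes, median -0.12), and in M83 7 (50.8%, median -0.12). The chaperonin list, which holds the mitochondrial Hspd1 and Hspe1 and the cytosolic CCT ring, had 7 of 10 genes above control in M8 and 0 of 10 in M32 and in M83. Hspd1 stood at 1781.5 CPM in control against 2189 (M8), 1668 (M32) and 1211 (M83), and Hspe1 at 327 CPM in control against 462 (M8), 324 (M32) and 225 (M83). Within the CCT ring, Cct7 had log2 ratios of -0.07, -0.57 and -0.16 and Cct4 -0.06, -0.28 and -0.39. These are counts over libraries that share 1 control, with no replicate check, and the differences between lines were not tested.

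**Figure D4:**
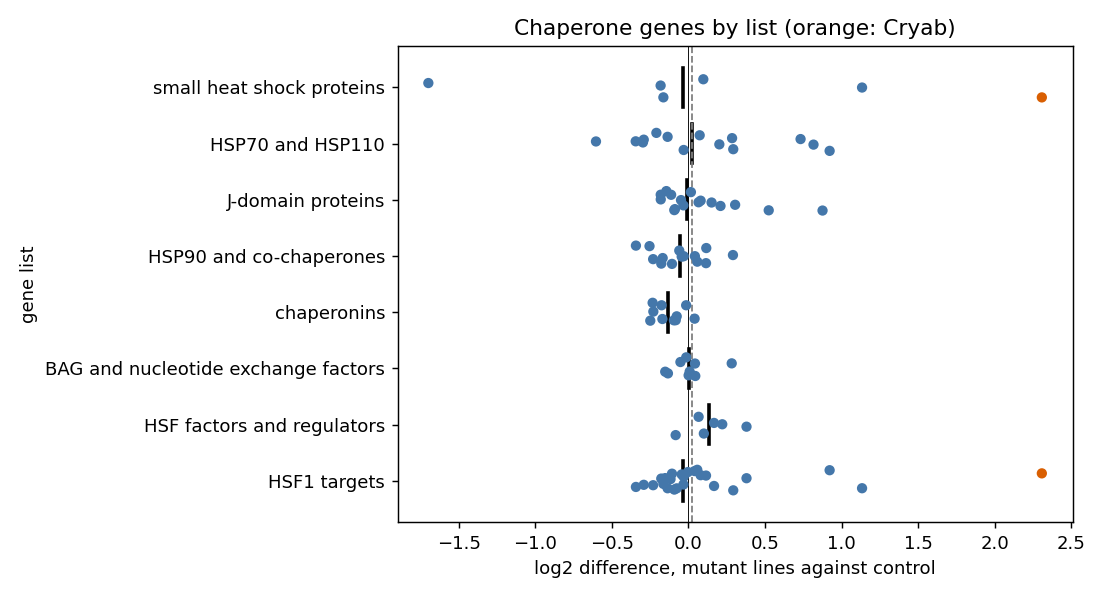
Log2 difference of the mutant lines against control for every tested gene of the 8 chaperone lists, with the list median as a black bar and the median of all tested genes (0.02) as a dashed line. Cryab (orange, 2.31) lies apart from the others, and the list medians lie between -0.13 (chaperonins) and 0.13 (HSF factors and regulators).

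The counts by list that follow stand beside 23.3% of all tested genes above control in all lines and 21.3% below, and none of them is read as a result about its list. Of the 6 tested small heat shock protein genes, 1 was above control in all lines and 1 below, Cryab and Hspb9, and the median was -0.03. Hspb11, a distant relative found in cilia, had a log2 difference of -0.18 (SE 0.384). Of 14 tested HSP70 and HSP110 genes 2 lay above in all lines and 5 below, of 16 J-domain genes 3 above and 2 below, and of 14 HSP90 genes and co-chaperones 1 above and 4 below. Among the 6 tested factors and regulators of the HSF family 2 were above and 0 below. Hsf2, the relative of Hsf1 that acts in development, had a log2 difference of 0.07 (SE 0.31) and Hsf4, the lens factor, 0.22 (SE 0.275). The HSF-binding protein gene Hsbp1 had a difference of 0.10 (SE 0.214). In these lists 0 genes other than Cryab passed in edgeR or DESeq2 or had an unadjusted p under 0.05.

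No tested gene that starts within 50 kb of Cryab was past 2-fold in any line. Over all tested genes 4.6% (M8), 4.8% (M32) and 5.19% (M83) were, in either direction. With 5 tested neighbours and such shares, nothing is read from this about the locus. Dixdc1, at -11.8 kb from the Cryab start, had log2 ratios of -0.11 (M8), 0.67 (M32) and 0.25 (M83), and 2310030G06Rik, at -4.789 kb, 0.30, -0.11 and 0.87. On the other side Fdxacb1 had 0.34, 0.07 and 0.38, Alg9 -0.25, -0.11 and -0.01, and 1110032A03Rik -0.59, 0.47 and 0.56. The 5 tested neighbours had an edgeR adjusted p of 1 each.

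Among genes with a mean of at least 5 CPM, those whose 3 log2 ratios to control lay near those of Cryab included Car6, Il1rl1, Crabp2 and Sema3b. Likeness was measured as the Euclidean distance over the 3 ratios. These 4 genes were chosen for this likeness, share the control library with Cryab and carry no test. Il1rl1, the interleukin 33 receptor gene, went from 1986 counts to 8827 (M8), 6592 (M32) and 11965 (M83), at a distance of 0.531 and with the same order of the lines as Cryab. Car6, a secreted carbonic anhydrase gene, went from 81 counts to 300, 368 and 517 in the same lines (distance 0.506). Crabp2, a retinoic acid binding protein gene, went from 36 to 175, 250 and 254 (0.556), and the semaphorin gene Sema3b from 49 to 212, 286 and 439 (0.573).

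**Figure D5:**
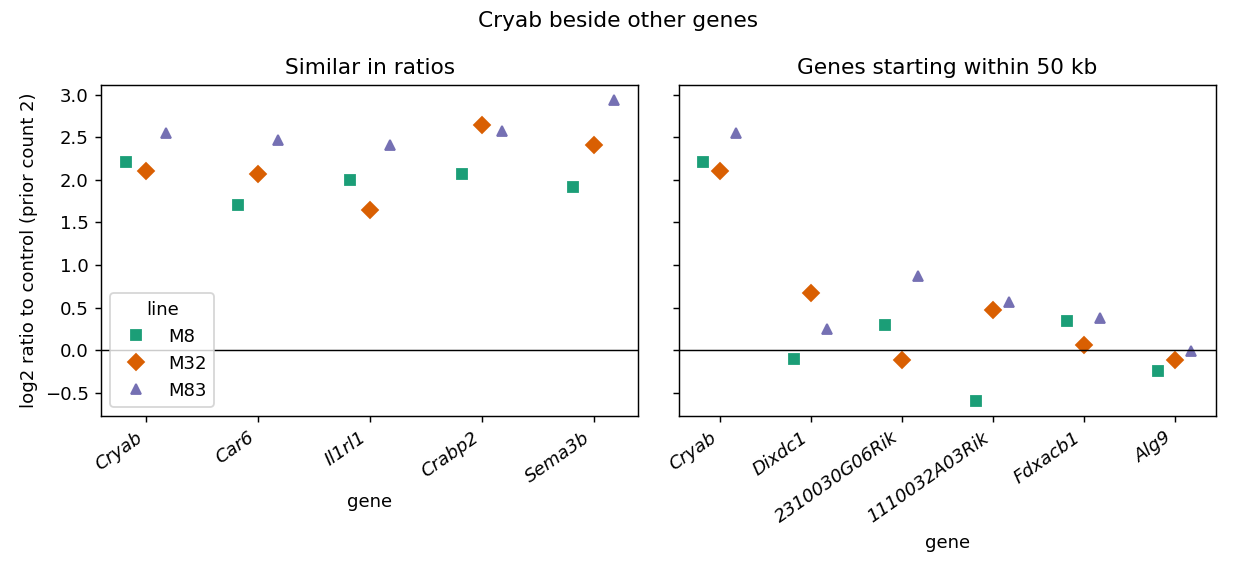
Log2 ratio to control in M8, M32 and M83 for Cryab beside 4 genes with similar ratios (left) and beside the 5 tested genes that start within 50 kb of it (right). The genes on the left lie at 1.64 or above, as they were chosen to, while those on the right lie between -0.59 and 0.87.

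Since Cryab and Hspb6 are muscle-rich transcripts, muscle markers were read beside them. Of 14 striated muscle markers 4 were tested, and Myod1, Myog, Myh2 and Myh4 had 0 counts in every library. The list summed to 42.2 CPM in control against 75.6 (M8), 59.4 (M32) and 24.8 (M83). Most of this was Tnnt2, the cardiac troponin T gene, with 40.1 CPM in control and 73.1, 55.5 and 23.2 in the lines. Myh7, a cardiac and slow muscle myosin gene, gave 3 counts in control against 15 (M8), 13 (M32) and 21 (M83). Of 8 smooth muscle markers 5 were tested, and their list summed to 75.8 CPM in control against 83.5 (M8), 107 (M32) and 68.5 (M83). Most of that sum was Smtn, with 74.4 CPM in control against 63.4 (M8), 76.4 (M32) and 65.6 (M83). The smooth muscle actin genes differed more between libraries, Acta2 with 6 counts in control against 199 (M8), 474 (M32) and 53 (M83), and Actg2 with 14 against 348, 318 and 16. Other markers of that list were close to absent. In any library Myh11 had at most 3 counts, Cnn1 at most 2, Lmod1 at most 4 and Synm at most 12. Glia and lens markers summed to at most 2.21 CPM in any library, with 6 of 12 at 0 in all of them. Fibroblast and mesenchymal markers were above control in every line by their sum, at 6750.4 CPM in control against 7421 (M8), 8502 (M32) and 7821 (M83), with 7 of 10 tested and Thy1 at 0 throughout. Most of that sum was Vim, at 4526 CPM in control against 4362 (M8), 4789 (M32) and 5072 (M83), so below control in M8. The list's median log2 difference was 1.33, with 5 of the 7 above control in all lines. Of the 7, 0 passed in edgeR, 2 had an unadjusted p under 0.05 and 1 was called by DESeq2. The collagen gene Col1a1 stood at 429.99 CPM in control against 888 (M8), 1232 (M32) and 1126 (M83), and Col3a1 at 68.5 against 272, 479 and 70.8. Col1a2, with higher counts than either, stood at 1704 CPM in control against 1843 (M8), 1906 (M32) and 1520 (M83), so below control in M83. Endothelial markers summed to 0.353 CPM in control against 0.913 (M8), 0.664 (M32) and 1.14 CPM (M83), with 2 of 6 tested and Emcn at 0. The part of the striated muscle, mesenchymal, smooth muscle and endothelial markers in the Cryab difference was not tested. In bulk RNA, fewer expressing cells and less RNA per cell cannot be told apart.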

How the data were processed

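Poly(A) RNA was measured in 4 samples, 1 control and 3 ENU mutant lines, with 1 column each. The deposited values are whole-number counts for each gene, not normalised. Per the submitters' processing notes the build is GRCm38. Aligner, counter, annotation and strand setting: not given in the sources used here. Positions and exon lengths came from GENCODE vM21 (same build, 41434 of 41457 row identifiers), and promoters from RefSeq.

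The lines were set against control with edgeR 4.0.16 (R 4.3.3) on the counts, with TMM factors, filterByExpr (13576 genes), the quasi-likelihood F-test and Benjamini-Hochberg adjustment. The labels do not say whether repeats were separate cultures. The p-values reflect only the spread between the libraries of the lines, which are different mutants. How much of that spread is technical cannot be told. Log2 ratios of single lines used a prior count of 2. Levels per length used the union of annotated exons. DESeq2 1.42.0, other scalings, filters, folds and leaving out each line were alternatives. The script was tested on simulated data.

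The members and lists were chosen with earlier results of these data known. Named were the 10 members, 14 fixed pathway genes, up to 2 genes per direction and list (mean of at least 5 CPM, same direction in the 3 lines), the 5 genes nearest to Cryab and genes starting within 50 kb of it. Not every gene so named is reported (1 of the 5 nearest to Cryab is not reported here), and the markers Krt18, Krt20, Vim, Tnnt2, Myh7, Smtn, Acta2, Actg2, Col1a1 and Col3a1, as well as Hspb9, Hspa2, Cryaa, Dnajb9, Hspa13, Sil1 and Dnajb11, were chosen after their values were seen. A count of 0 allows up to 3 counts.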

Additional observations from a re-analysis of the deposited data

How the results depend on the processing

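Over 129 recomputed values of single members, 126 kept their direction and their side of the threshold or stayed within a set spread. No tested member other than Cryab came near the threshold in any setting, so keeping a side of it carries little weight. The exceptions were the log2 difference of Hspb6 without M32 (-0.0030) and without M83 (-0.0793), and the log2 ratio of Hspa8 in M83. The Hspb6 difference was 0.10 with all lines and kept its direction without M8 (0.3091). The Hspa8 ratio was -0.26 with scaling by library size alone, against -0.32, and kept its direction. Some values counted among the 126 also changed sign, close to 0. In M8 the log2 ratio of Hspb8 went from 0.0013 to -0.0021 (library size alone) and -0.006 (RLE size factors). That of Hsf1 in M8 went from 0.0066 to -0.0007 (RLE size factors). The log2 difference of Cryab lay between 2.15 (without M83) and 2.37 (without M32) in all alternatives run. The count of genes called in the lines was 37 in DESeq2 and 2 with no filter on low counts, against 1, and it was 1 without M8, M32 or M83 in turn. The number of genes past 2-fold with a minimum of 10 counts was 1308 (M8), 1323 (M32) and 1399 (M83), and 147, 153 and 148 with 4-fold, against 625, 652 and 705. Members above control in all remaining lines numbered 3 without M8, M32 or M83, against 2. Those below numbered 2 of the 10 members with TMM scaling, 3 by library size alone and 4 with RLE size factors. They numbered 5 without M8 and 2 without M32 or M83. With a line left out fewer lines have to agree, so such counts can rise for any genes. The shares over all tested genes are not given for these settings, and nothing is read from these counts about the members. The median of HSF1 targets was -0.04 without Cryab (chosen after seeing the data, as was summing Hspa1a and Hspa1b) and between -0.13 (without M8) and 0.01 (without M83) when a line was left out. No paired analysis was possible because the groups share no replicate numbers in the labels and the control has 1 library. Low counts limit Hspb1, Hspb2, Hspa1a and Hspa1b.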

Other observations

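The lists held 8 genes whose products work in the endoplasmic reticulum, a grouping made after their values were seen. The log2 difference was 0.29 for Hsp90b1, 0.28 for Hyou1, 0.21 for Dnajc3, 0.20 for Hspa5, 0.52 for Dnajb9, 0.07 for Hspa13, 0.01 for Sil1 and -0.05 for Dnajb11. None of these 8 passed in edgeR or DESeq2 or had an unadjusted p under 0.05. Hsp90b1, the HSP90 of that compartment, went from 47054 counts in control to 67416 (M8), 60153 (M32) and 63065 (M83). Hspa5, its HSP70, was above control in M8 and M32 (log2 ratios of 0.42 and 0.26) and below it in M83 (-0.13).

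Hspa2, an HSP70 gene of the male germ line, was past 2-fold in M83, with 60 counts where control gave 19, M8 gave 6 and M32 gave 45 (log2 ratio 1.39). Besides the members, it was the only gene of the 8 pathway lists past 2-fold in any line by the rule used above. These lists held 77 tested genes, members included. The share of all tested genes past 2-fold, either direction, was 4.6% (M8), 4.8% (M32) and 5.19% (M83). No test was run on this count, and nothing is read from it about the lists.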
